A study of Mus musculus with 18 samples.

Results

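*H2-Eb1* encodes the beta chain of the mouse MHC class II molecule I-E, and its transcript was followed here across 18 spleen RNA libraries of ICR mice, an outbred stock. It was chosen on its own values in these libraries, for varying where most other class II genes varied little. Its levels and the differences between them are therefore given as a description without a test. It is 1 of 19326 genes in the deposited table. The libraries fall into 6 groups of 3, all from mice aged 10 weeks. The groups are control, AOS at 10 mg/kg (an agent the labels give only by its abbreviation), high-fat diet (HFD), HFD with AOS at 10 mg/kg, HFD with faecal microbiota transplantation (FMT) marked AOS 10 mg/kg, and HFD with FMT marked control. The last 2 are called HFD+AOS-FMT and HFD+control-FMT. The series text states that it explored FMT effects on a spleen damaged by the diet. No label ties a library to an animal, cage or batch, so p-values measure the spread between these libraries, which may be technical.

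MHC class II molecules present peptides taken up from outside the cell to CD4+ T cells, and in the spleen they are carried mainly by B cells, dendritic cells and macrophages. Mice have 2 classical class II molecules, I-A (alpha chain *H2-Aa*, beta chain *H2-Ab1*) and I-E (alpha chain *H2-Ea*, beta chain *H2-Eb1*). They are assembled on the invariant chain *Cd74*, loaded with peptide through *H2-DM*, and switched on by the factor *Ciita* together with the RFX proteins at conserved promoter boxes. Class II genes differ greatly between mouse haplotypes. Strains of the b haplotype, C57BL/6 among them, make no I-E because a deletion removes the *H2-Ea* promoter, and the reference annotation, built on that strain, lists *H2-Ea* as a polymorphic pseudogene, *H2-Ea-ps*.

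In GRCm38 (mm10), *H2-Eb1* lies on the forward strand at chr17:34305867-34316674 and is annotated as protein coding, with 5 transcripts, the longest of 1669 bases in 6 exons. The class II genes around it are *H2-Ab1* at chr17:34257689-34269419, *H2-Aa* at chr17:34282744-34287823, *H2-Eb2* at chr17:34325665-34341412 and *H2-Ea-ps* at chr17:34341959-34344645. The set of RefSeq promoters used here had no window for *H2-Ab1* or *H2-Ea*. The promoters of *H2-Eb1*, *H2-Eb2* and *H2-Aa* are shown because these genes share a control system while, in these libraries, their levels moved apart. Each is the 150 bases before the gene's RefSeq start in GRCm38.p6, on the gene's own strand, and capitals mark 2 motifs: CTGATTGG, an inverted CCAAT box called the Y box, and AGCAACTGATG, the longest stretch that the windows of *H2-Eb1* and *H2-Eb2* share and a part of their X box.
H2-Eb1, chr17:34305717-34305866, forward strand: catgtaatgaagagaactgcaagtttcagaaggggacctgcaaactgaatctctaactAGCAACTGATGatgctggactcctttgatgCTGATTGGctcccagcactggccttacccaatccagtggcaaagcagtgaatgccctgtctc
H2-Eb2, chr17:34325525-34325674, forward strand: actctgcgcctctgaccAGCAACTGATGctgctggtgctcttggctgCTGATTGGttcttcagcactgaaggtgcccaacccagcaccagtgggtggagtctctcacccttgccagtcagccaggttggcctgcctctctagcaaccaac
H2-Aa, chr17:34287824-34287973, reverse strand: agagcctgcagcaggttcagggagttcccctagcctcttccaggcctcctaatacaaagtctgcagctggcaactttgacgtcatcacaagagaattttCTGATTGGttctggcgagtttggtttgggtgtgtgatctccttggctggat

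The Y box letters started 62 bases before the RefSeq start of *H2-Eb1*, 103 bases before that of *H2-Eb2* and 51 bases before that of *H2-Aa*. With both strands searched, CTGATTGG was found in 4.1% of all 32851 RefSeq promoter windows of 300 bases, and in those of 4 of the 13 class II genes that have such a window. AGCAACTGATG was found in 8 windows (0.0244%), which include those of *H2-Eb1* and *H2-Eb2*, 92 and 133 bases before their starts. The motifs do not overlap. These letters are the C57BL/6J reference and not the alleles of the outbred mice, which were not analysed here.

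The values of the table were read as FPKM, that is sequenced fragments scaled to transcript length and to the size of the library. The depth behind them is unknown, so no counting error can be attached to a value. *H2-Eb1* was present in all 18 libraries, and over them it ran from 19.8 to 490.1 FPKM with a median of 263.6, a 24.7-fold range. In the control spleens it was at 241.6, 269.3 and 257.8 FPKM (256.2 ± 13.9, SD, n = 3). With AOS and no HFD in the label it was at 490.1, 441.7 and 170.2 FPKM (367.4 ± 172, SD, n = 3). On HFD it was at 163.8, 43.2 and 19.8 FPKM (75.6 ± 77.2, SD, n = 3). These 3 HFD libraries lay below every control library, and they differed among themselves by 8.26-fold.

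With HFD and AOS together *H2-Eb1* was at 313.7, 312.2 and 393.4 FPKM (339.8 ± 46.5, SD, n = 3). With HFD+AOS-FMT it was at 46.8, 102.0 and 332.9 FPKM (160.5 ± 152, SD, n = 3). With HFD+control-FMT it was at 376.0, 72.03 and 329.9 FPKM (259.3 ± 164, SD, n = 3). Both FMT groups therefore held at least 1 library within the HFD range and at least 1 library above all control libraries. The group means fell in the order AOS, HFD+AOS, HFD+control-FMT, control, HFD+AOS-FMT and HFD, and each group overlapped with its neighbour in that order. Only the control group (1.11-fold from lowest to highest) and the HFD+AOS group (1.26-fold) had all 3 libraries within 1.5-fold of each other. The other groups spread over 2.88-fold (AOS), 5.22-fold (HFD+control-FMT), 7.12-fold (HFD+AOS-FMT) and 8.26-fold (HFD).

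**Figure D1:**
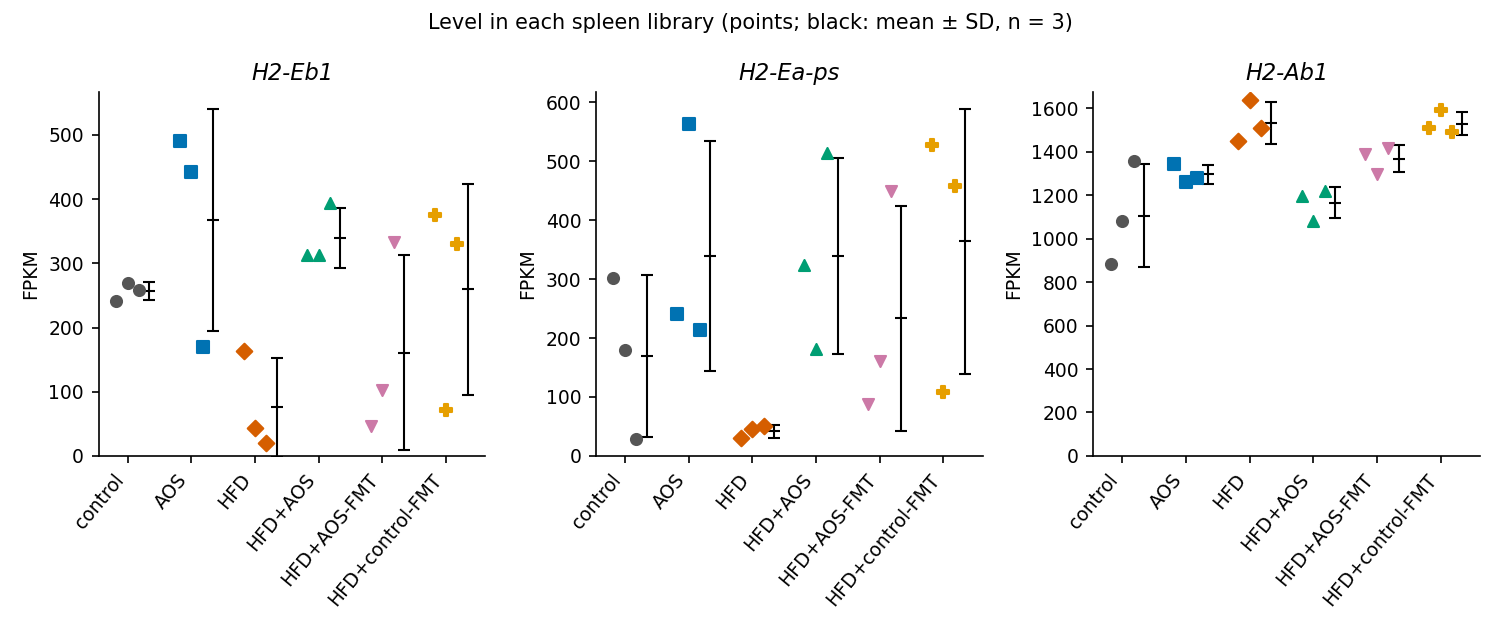
Level of *H2-Eb1* and other class II genes in each spleen library, in FPKM on linear axes that start at 0, by group. Coloured points are single libraries and black marks are the group mean ± SD (n = 3), with the lower bar of *H2-Eb1* on HFD ending at the axis. The *H2-Eb1* points run from 19.8 to 490.1 FPKM, and those of *H2-Ab1* from 882 to 1636 FPKM.

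The levels did not fall into an on state and an off state. With the libraries ordered by level, the widest step on the log2 scale was 1.12, between the lowest library (HFD 3) and the next (HFD 2), and each other step was at most 0.68. In 14 of the 18 libraries *H2-Eb1* was above 100 FPKM. It was the 139th most abundant of the 19326 genes in AOS 1 and the 4633rd in HFD 3. Even in HFD 3, 76.0% of the genes in the table had a lower value.

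*H2-Ab1*, the beta chain of the other class II molecule, was set beside *H2-Eb1* in each library. Its level ran from 882 FPKM in control 1 to 1636 FPKM in HFD 2, a 1.85-fold range. Expressed as a percentage of *H2-Ab1* in the same library, *H2-Eb1* was at 1.31% in HFD 3 and 36.5% in AOS 1, with a median of 22.8%. *H2-Aa*, the alpha chain that pairs with *H2-Ab1*, stayed between 1.54 and 2.06 times *H2-Ab1* in every library. In bulk spleen RNA, fewer cells of a type and less RNA per cell cannot be told apart. Whether alleles that differ from the reference lowered the values of *H2-Eb1* or *H2-Ea-ps* in some of these outbred mice was not tested.

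*H2-Ea-ps*, the alpha chain partner of *H2-Eb1*, was also present in all 18 libraries. It was at 301.8, 179.0 and 28.5 FPKM in control, 240.3, 563.6 and 214.3 with AOS, and 30.1, 45.2 and 51.4 on HFD. It was at 323.4, 180.8 and 513.2 FPKM with HFD and AOS, 88.4, 161.9 and 449.6 with HFD+AOS-FMT, and 527.3, 108.1 and 458.2 with HFD+control-FMT. Its range over the libraries was 19.8-fold. All 3 HFD libraries were low for this gene, and control 3 was lower than any of them.

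Over all libraries the 2 chains of I-E went largely together, though not within every group. Across the 18 libraries, which share 1 normalization, Pearson's r of their log2 values was 0.66 and Spearman's rho 0.80, and r was 0.54 over the 16 libraries left without the 2 that lay farthest from the *H2-Eb1* median. Within groups, with each group's mean removed, r was 0.44. On HFD the chains ran in opposite order. From HFD 1 to HFD 3 *H2-Eb1* fell from 163.8 to 19.8 FPKM and *H2-Ea-ps* rose from 30.1 to 51.4 FPKM. Of the 7 libraries with the lowest *H2-Eb1* and the 7 with the lowest *H2-Ea-ps*, 6 were the same. AOS 3 was among the lowest for *H2-Eb1* alone, and control 3 for *H2-Ea-ps* alone.

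The ratio of the 2 chains was not fixed. In 12 libraries *H2-Ea-ps* was 1.03 to 1.89 times *H2-Eb1* in FPKM. In 5 libraries it was lower than *H2-Eb1*, with ratios of 0.111 in control 3, 0.184 in HFD 1, 0.490 in AOS 1, 0.579 in HFD+AOS 2 and 0.665 in control 2. In HFD 3, where *H2-Eb1* was lowest, the ratio was 2.59. Control 3 held *H2-Eb1* at 257.8 FPKM, near the other controls, with *H2-Ea-ps* at 28.5 FPKM.

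**Figure D2:**
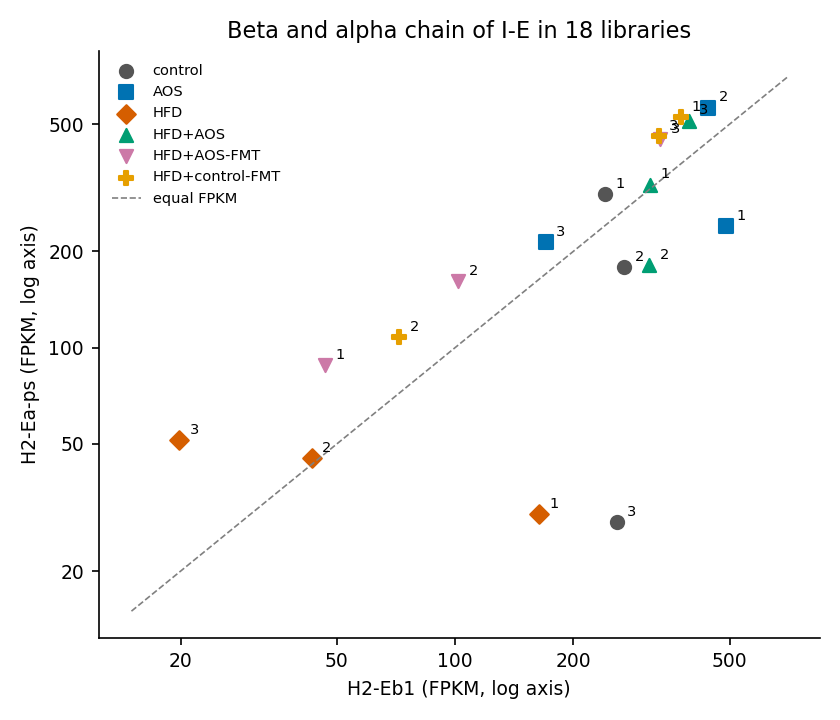
*H2-Ea-ps* against *H2-Eb1* in the 18 libraries, in FPKM on log axes, with colours for the groups and a dashed line where the values are equal. Most points lie near the line, from HFD 2 at the lower left to the libraries above 300 FPKM at the upper right. Control 3 and HFD 1 lie well below the line, and HFD 3 lies above it.

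The other class II genes were much steadier. Of 18 other class II genes listed, 17 were measured, and without *H2-Ea-ps* the remaining 16 had a highest value 1.29 to 2.27 times the lowest, with a median of 1.75. Their SD of log2 values over the 18 libraries was at most 0.30, against 1.32 for *H2-Eb1* and 1.42 for *H2-Ea-ps*. *H2-Eb2*, a low class II beta gene next to *H2-Eb1* with a mean of 12.8 FPKM, had the widest range of these 16. The alpha chain of I-A, *H2-Aa*, ran from 1548 to 2790 FPKM (1.80-fold) and the invariant chain *Cd74* from 2873 to 5347 FPKM (1.86-fold).

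The peptide exchange genes showed the same narrow ranges. *H2-DMa* ran over 1.60-fold, *H2-DMb1* over 1.67-fold and *H2-DMb2* over 2.09-fold, which together make the *H2-DM* chains that swap peptides on class II. *H2-Oa* (1.89-fold) and *H2-Ob* (1.98-fold) encode H2-O, which restrains *H2-DM*. Of the genes for antigen processing, the protease cathepsin S (*Ctss*) ran over 1.75-fold, the protease legumain (*Lgmn*) over 1.71-fold and the thiol reductase *Ifi30* over 1.72-fold. The transactivator *Ciita* ran from 27.5 to 48.3 FPKM (1.75-fold), and the RFX subunits *Rfx5*, *Rfxap* and *Rfxank* over 1.51-fold, 1.34-fold and 1.29-fold.

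The 17 genes did not share the *H2-Eb1* pattern, apart from *H2-Ea-ps*. Over the 18 libraries the r of the other 16 with *H2-Eb1* lay between -0.58 (*H2-Oa*) and 0.21 (*Lgmn*), and it was -0.44 for *H2-Ab1*. With *H2-Ab1*, by contrast, r was 0.89 for *H2-Aa*, 0.94 for *Cd74* and 0.90 for *H2-DMa*. These values describe libraries that share 1 normalization and 6 groups.

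**Figure D3:**
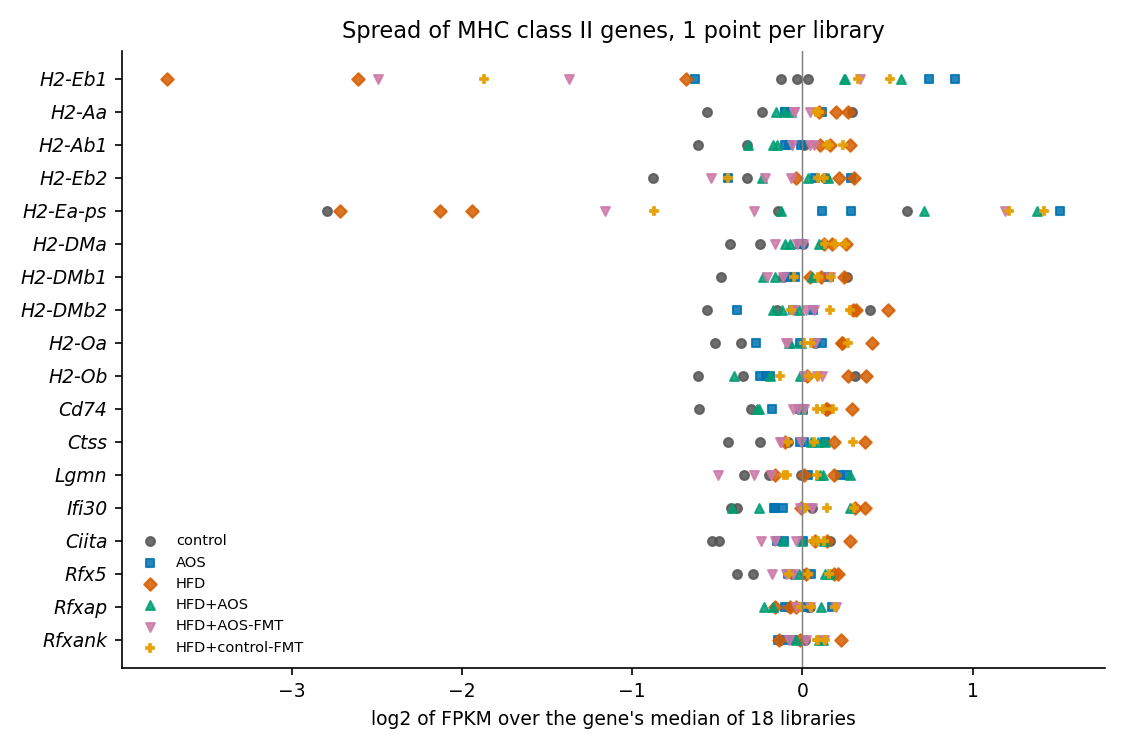
Level of each class II gene in each library, as log2 of its FPKM over the gene's own median of the 18 libraries, with 1 point per library coloured by group. The points of *H2-Eb1* and *H2-Ea-ps* spread over several log2 units, with SDs of 1.32 and 1.42, while those of the other 16 genes have SDs of at most 0.30.

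Neither the neighbourhood nor the class I genes spread as widely. Within 500 kb of *H2-Eb1* the annotation lists 97 other genes, of which 54 were in the table and 36 averaged 10 FPKM or more. *H2-Ea-ps*, 25.3 kb away, was the only one of these 36 with a highest value at least 10 times the lowest. The other 35 reached at most 3.28-fold (*Kifc1*, a kinesin motor of the spindle), with a median of 1.60-fold, and their r with *H2-Eb1* ran from -0.58 to 0.46. The class I list holds classical heavy chains, which present peptides to CD8+ T cells, non-classical heavy chains, and genes that support class I. It had 25 genes tested, with ranges of 1.45-fold to 7.14-fold (*H2-T22*, a non-classical gene) and a median of 2.22-fold.

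**Figure D4:**
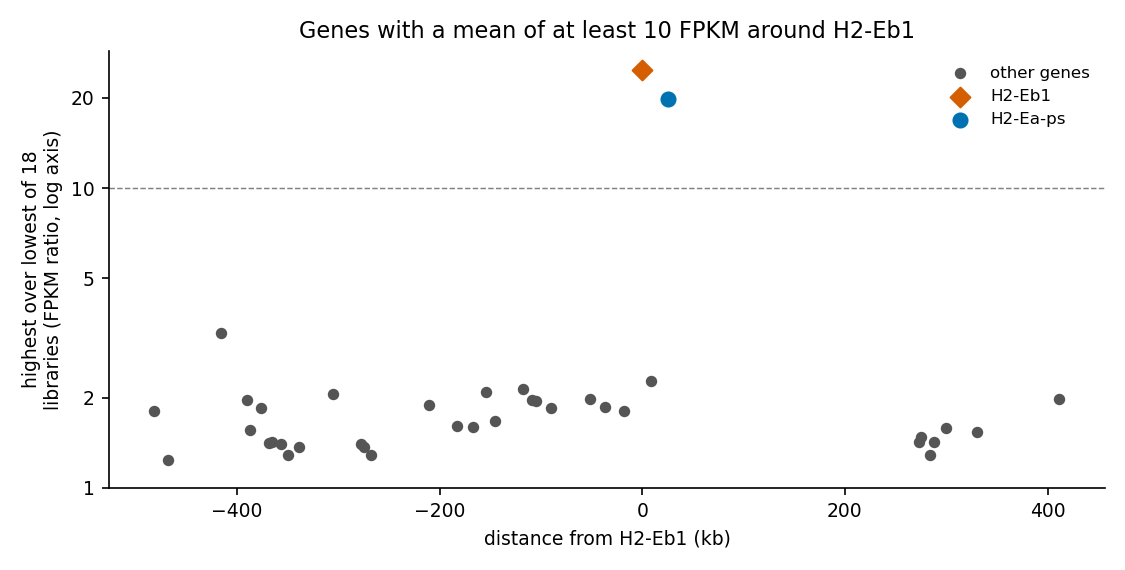
Highest over lowest FPKM of the 18 libraries, on a log axis, for genes that averaged 10 FPKM or more, against distance from *H2-Eb1* in kb on chromosome 17. *H2-Eb1* (24.7-fold) and *H2-Ea-ps* (19.8-fold) stand above the other 35 genes, which reach at most 3.28-fold.

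In the table as a whole, 7257 genes averaged 10 FPKM or more, and 79 of them (1.09%) had a highest value at least 10 times the lowest. The median range of these 7257 genes was 1.48-fold, and the SD of log2 values of *H2-Eb1* was larger than that of 99.4% of them. The 79 genes include 5 on chromosome 17. They are *H2-Eb1*, *H2-Ea-ps*, the heat shock genes *Hspa1a* and *Hspa1b*, and the pancreatic lipase cofactor *Clps*, which ran from 0.90 to 1754 FPKM with its highest value in HFD+AOS 2. Among the 6151 genes that were at 10 FPKM or more in every library, 18 (0.293%) had so wide a range. The others of these 18 include neutrophil genes (*Camp*, *Lcn2*, *Ngp*, *S100a8*, *S100a9*), the adult beta globins *Hbb-bs* and *Hbb-bt*, and the interferon response factor *Irf7*. These 18 were taken by the same range that chose *H2-Eb1*, so they are a description only.

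HFD against control asked what the diet did to the spleen. *H2-Eb1* was lower on HFD by 2.27 on the log2(FPKM + 1) scale, with a mean of 75.6 FPKM against 256.2, a 3.39-fold lower mean, and no library of one group reached the other. Of all 12969 genes tested, 5.44% were lower on HFD with no overlap. *H2-Ea-ps* had a mean of 42.3 FPKM (SD 11.0) against 169.8 (SD 137), with control 3 below all HFD libraries, and its log2 difference of -1.47 ± 0.87 (SE) did not pass the limma test (adjusted p = 0.275).

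Of the 17 other class II genes, 4 rose on HFD in limma with an adjusted p under 0.05, where 2.75% of all genes passed and 1.46% passed as higher. *H2-Ab1* rose by 0.49 ± 0.11 (SE) on the log2 scale (limma adjusted p = 0.0452). *H2-DMa* rose by 0.40 (limma adjusted p = 0.0450), *Rfx5* by 0.37 and *H2-Oa* by 0.55 (both with a limma adjusted p of 0.0452). The other 13 did not pass, among them *H2-Aa* at 0.36, *Cd74* at 0.44 and *Ciita* at 0.44. In all, 15 of 17 had a higher mean log2 value on HFD and *H2-Ea-ps* and *Rfxap* (-0.08) a lower one, with a median difference of 0.41 against 0.10 over all genes.

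These 4 calls rested on the scaling and on single libraries. After scaling by the median ratio to the geometric mean, the median of all genes moved from 0.10 to 0.00 in this comparison, no class II gene passed, *H2-Ab1* was at 0.38 (limma adjusted p = 0.0613), and *Rfxank* went from 0.10 to -0.0032. Without control 3 the count was 14, with 3818 genes passing in all against 357 with every library. It was 0 without any 1 of control 1, control 2, HFD 2 and HFD 3. The log2 difference of *H2-Eb1* was -2.38 after that scaling and between -3.08 and -1.59 when 1 library was left out in turn.

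HFD+AOS against HFD asked whether AOS altered the state on the diet. *H2-Eb1* was higher with AOS by 2.67 on the log2 scale, with means of 339.8 and 75.6 FPKM, a ratio of 4.50, and all 3 HFD+AOS libraries lay above all 3 HFD libraries. Of all genes tested, 6.42% were higher without overlap. *H2-Ea-ps* was also higher without overlap, with means of 339.1 and 42.3 FPKM, and its log2 difference of 2.88 had a limma adjusted p of 0.200. Both comparisons use the HFD libraries, whose low *H2-Eb1* values enter each. Of the 17 other class II genes 0 passed in limma, as did 0% of all genes. Without adjustment 8 of the 17 had a p under 0.05 in limma, and 15% of all genes. Only 3 of the 17 had a higher mean log2 value with AOS, namely *H2-Ea-ps*, *Lgmn* (0.16) and *Rfxank* (0.03), and the median of the 17 was -0.21 against -0.03 over all genes.

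AOS against control, neither labelled with HFD, gave overlapping values of *H2-Eb1*. The log2 difference was 0.38, with 2 AOS libraries above all controls and 1 below all of them. *H2-Ea-ps* overlapped as well, with means of 339.4 and 169.8 FPKM and a log2 difference of 1.40 (limma adjusted p = 0.474). None of the 17 genes passed in limma, as did 0% of all genes. At an unadjusted p under 0.05 limma had 5 of the 17 and 15.4% of all genes, and without control 3 the adjusted count was 3 of the 17 and 304 genes in all. The median difference of the 17 was 0.19 against 0.05 over all genes.

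The FMT groups, which bear on whether transferred microbiota changed the state on the diet, overlapped with HFD in *H2-Eb1*. The log2 difference was 1.15 for HFD+AOS-FMT and 1.97 for HFD+control-FMT against HFD. In *H2-Ea-ps* neither FMT group overlapped with HFD. Its log2 difference was 2.15 for HFD+AOS-FMT (limma adjusted p = 0.325), where 6.25% of all genes were higher without overlap. It was 2.82 for HFD+control-FMT (limma adjusted p = 0.945), where 4.57% were. No class II gene passed in limma in either comparison, where 0% and 0.0154% of all genes passed. At an unadjusted p under 0.05 limma had 6 of the 17 and 13.6% of all genes for HFD+AOS-FMT, and 1 of the 17 and 4.63% of all genes for HFD+control-FMT.

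Between the FMT groups *H2-Eb1* overlapped, with a log2 difference of -0.82 for HFD+AOS-FMT minus HFD+control-FMT and means of 160.5 and 259.3 FPKM. *H2-Ea-ps* overlapped too, with a log2 difference of -0.67 (limma adjusted p = 0.837). None of the 17 genes passed in limma, where 0.00771% of all genes passed. At an unadjusted p under 0.05 limma had 2 of the 17 and 10.5% of all genes. In the limma F test over the 6 groups 0 of the 17 passed, where 0.116% of all genes passed (15 genes). At an unadjusted p under 0.05 the F test had 9 of the 17 and 22% of all genes. Without control 3 the F test passed 10 of the 17 and 1060 genes in all. *H2-Ea-ps* had an adjusted p of 0.197 in the limma F test.

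**Figure D5:**
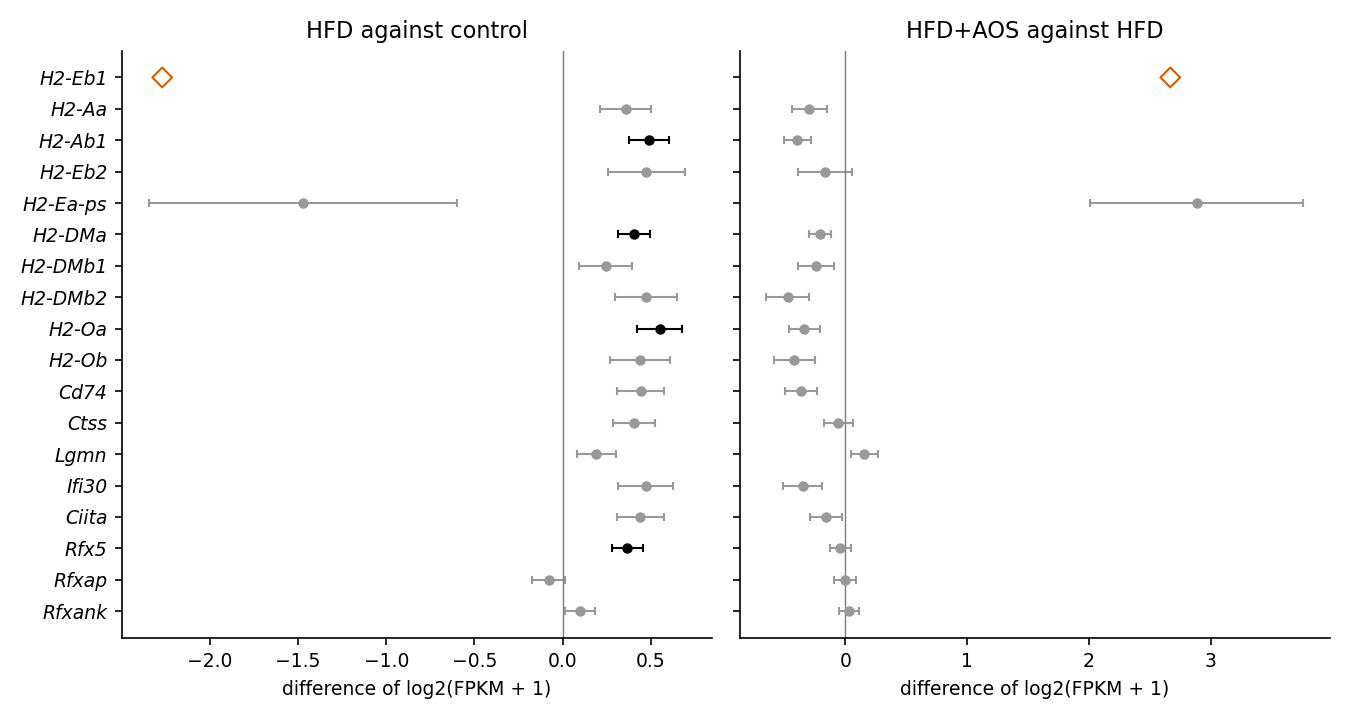
Differences of log2(FPKM + 1) between groups for class II genes, 1 panel per comparison, with bars for the SE of limma and black points where the adjusted p is under 0.05. *H2-Eb1* is drawn without a bar because it was not tested. In HFD against control it lies at -2.27 while *H2-Ab1*, *H2-DMa*, *Rfx5* and *H2-Oa* lie between 0.37 and 0.55, and in HFD+AOS against HFD it lies at 2.67 with *H2-Ea-ps* at 2.88.

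The cell makeup of the libraries varied, and its part in the levels of *H2-Eb1* and the other class II genes was not tested. Mean log2 marker levels were 7.78 on HFD and 7.37 in control for B cells, and 3.57 and 3.14 for dendritic cells. Those of macrophages and T cells were also higher on HFD, and those of erythroid cells and neutrophils lower. The median difference of the other class II genes was 0.41. The 12 B cell markers were all measured and their summed level was 2057 to 3534 FPKM in control, 2833 to 3204 with AOS, 3346 to 4088 on HFD, 2632 to 3454 with HFD+AOS, 3004 to 3312 with HFD+AOS-FMT and 3072 to 3640 with HFD+control-FMT. The mean of this sum was highest on HFD, at 3678 FPKM. The 10 dendritic cell markers summed to 158 to 168 FPKM on HFD and to 83.0 to 144 in control. The 10 T cell markers summed to 547 to 603 FPKM on HFD and to 260.1 to 461 in control, also without overlap. Among single genes tested, 14.0% were higher on HFD than in control without overlap. The 10 macrophage markers summed to 492 to 834 FPKM on HFD and to 449 to 565 in control. The 10 erythroid markers summed to 41646 to 164402 FPKM on HFD and to 117593 to 177293 in control. Haemoglobin genes took 10.8% (HFD 3) to 34.3% (control 1) of all FPKM. The share was lowest in HFD 3 and HFD 2 (11.0%), the libraries with the lowest *H2-Eb1*, and next lowest in HFD+AOS 3 (12.6%), which held *H2-Eb1* at 393.4 FPKM. The neutrophil markers stood apart in control 1 and control 2, with summed levels of 16368 and 4472 FPKM against at most 1541 FPKM in every other library. *H2-Eb1* was at 241.6 and 269.3 FPKM in these 2 controls and at 257.8 FPKM in the other one.

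The genes whose log2 levels were most like those of *H2-Eb1* were ranked by Pearson's r over the 18 libraries among 12968 other genes. Among the highest were *Tcf3*, an E protein factor of B cell development (r = 0.76, rho = 0.72), the poly(A) binding protein *Pabpc1* (0.75), the tubulin cofactor *Tbcd* (0.75) and the RNA binding protein *Hnrnpul1* (0.74). The lowest were the retinol binding protein *Rbp7* (r = -0.79), *Zfp825* (-0.77), *Ensa* (-0.74), *Zkscan3* (-0.74) and *Crem*, a cAMP-responsive regulator (-0.74). The sizes of the changes were unlike those of *H2-Eb1*. *Tcf3* ran only from 51.2 to 65.3 FPKM (1.28-fold), and *Rbp7* from 0.050 to 1.46 FPKM. *Rbp7* entered the genes tested only through HFD, the group with the lowest *H2-Eb1* mean. Its mean was 1.19 FPKM there and 0.17 to 0.55 FPKM in the other groups, so its place in this order is no support. *H2-Ea-ps* was the 27th by r and the 2nd by rho, behind *Zfp523*, a zinc finger gene on chromosome 17 (rho = 0.84) that ran from 4.89 to 7.89 FPKM.

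None of the 10 genes at the ends of this order by r stayed there once group means were removed, and 3 were shared with the order by rho. *H2-Ea-ps* was 585th by r within groups.

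Few exact stretches of the transcripts occurred elsewhere. Of the 25-base stretches of the longest *H2-Eb1* transcript, 2.31% also occurred in another gene's transcript (*H2-Ab1* or *H2-Eb2*), and of its 50-base stretches 0 did. For *H2-Ea-ps* the shares were 0.692% and 0. *Gm20513*, an antisense gene that overlaps *H2-Eb1*, was not analysed here, and its annotated transcripts held none of these stretches.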

How the data were processed

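Spleen RNA was extracted with Trizol and a column kit and sequenced by standard Illumina protocols, per the labels. Bowtie 0.12.2 and the build mm10 are named in the submitters' processing notes. The authors deposited 1 table of 19326 genes and 18 columns. The deposited values were taken to be FPKM, since no header or label names the unit and the sum of value times transcript length differed less between libraries (coefficient of variation 0.785%) than the plain sum (4.96%), over the 97.1% of genes with a length. RPKM would look the same. Counting program, annotation and strand setting are likewise not given in the sources used here. Total FPKM was 627964 to 831448 per library, 12221 to 12898 genes reached 1 FPKM, and 401 genes were at 0 in every library. Columns were matched to samples by group code and number in the header.

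Values were taken as log2(FPKM + 1). The 12969 genes that averaged 1 FPKM or more in any group entered 1 limma 3.58.1 fit (R 4.3.3, trend and robust variance) with 12 residual degrees of freedom over the 18 libraries, and p-values were adjusted by Benjamini-Hochberg over all of them. Groups of 3 cannot give an exact permutation p below 0.1. The fit was tested on simulated data. Ranges, correlations and positions were computed with Python 3.11.15, pandas 2.3.3 and scipy 1.17.1. Positions came from the GENCODE annotation of GRCm38 and promoters from RefSeq.

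The named genes were *H2-Eb1*, the measured class II genes, the 5 genes at each end of the Pearson order, neighbours within 500 kb and wide-ranging genes on chromosome 17 with a 10-fold range, and summed marker lists. Of the genes at the ends of the Pearson order, 1 is not reported here. The gene and all lists were chosen with earlier results of these data known. Alternatives were another pseudocount, other scalings and filters, other variance settings, a replicate block and leaving out each library. The numbers in the labels are not said to mark shared animals or batches. Residuals of same-numbered libraries correlated above 0.1 in every pair only for HFD+AOS against HFD (0.236, 0.268 and 0.191). Single pairs in other comparisons ran from -0.35 (AOS 1 and control 1) to 0.508 (HFD+AOS-FMT 1 and HFD+control-FMT 1).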

Additional observations from a re-analysis of the deposited data

How the results depend on the processing

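The direction of all 6 *H2-Eb1* differences was the same under every pseudocount, scaling and left-out library run. With 1 library left out in turn, the log2 difference was -3.08 to -1.59 for HFD against control, 1.99 to 3.48 for HFD+AOS against HFD, 0.10 to 0.86 for AOS against control, 0.40 to 1.96 for HFD+AOS-FMT against HFD, 1.29 to 2.78 for HFD+control-FMT against HFD, and -1.58 to -0.17 between the FMT groups. The SD of log2 values was 1.10 to 1.36.

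The count of other class II genes passing in HFD against control, 4 as reported, was 0 with median-ratio scaling, with quantile normalization, with no filter on low values and with the compared groups alone, and 1 without trend or robust variance. It ranged from 0 to 14 with 1 library left out. It was 0 without any 1 of AOS 1, AOS 2, AOS 3, HFD+AOS 2, HFD+AOS-FMT 1, HFD+AOS-FMT 2, HFD+AOS-FMT 3, HFD+control-FMT 1 and HFD+control-FMT 2, as without control 1, control 2, HFD 2 and HFD 3. Leaving out 1 library gave 0 to 3 for AOS against control and 0 to 10 for the F test. The count over all genes, 357, was 0 with median-ratio scaling, with no filter and with the compared groups alone, 5 with quantile normalization, 168 without trend or robust variance and 625 with a mean of at least 5 FPKM, and 0 to 3818 with 1 library left out. The cause was not tested.

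With a replicate block, the class II count in HFD against control was 8 and that over all genes 1842. In HFD+AOS against HFD, where residuals of same-numbered libraries correlated weakly in every pair, the block left 0 class II genes and 33 genes in all. The block moved no other class II count. Of the 10 genes most like *H2-Eb1*, 2 were shared with median-ratio scaling, 4 with quantile normalization, 3 with Spearman's rho and 0 with values centred within groups, and 3 to 10 with 1 library left out. The unknown depth and 3 libraries per group limit all values.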

Other observations

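Among genes at 10 FPKM or more in every library, the adult beta globins had wider ranges than *H2-Eb1*. *Hbb-bs* ran from 63.4 to 28485 FPKM (449-fold) and *Hbb-bt* from 20.2 to 5332 FPKM (264-fold). Both were lowest in AOS 2, where all haemoglobin genes together still took 25.6% of FPKM, so these genes did not follow haemoglobin as a whole. The r of these globins with the log2 level of *H2-Eb1* over the 18 libraries was -0.03 and -0.02. *Irf7*, which drives the type I interferon response, ran from 25.9 to 275.6 FPKM, with an r of 0.19 with *H2-Eb1*. These genes were chosen after their values were seen.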
